A study of Mus musculus with 12 samples.

Results

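The response of the embryonic mouse medial telencephalon to a second siRNA set against Dmrt3 and Dmrta2 was measured on 3 arrays and set against 3 arrays of cells that had received control siRNAs, for 15323 genes. These 6 arrays were chosen by their titles, out of 12 in the series, and the other 6 held siRNA set 1 against the same pair of genes and a Dmrta2 overexpression plasmid, 3 each. In every group the siRNAs or the plasmid were electroporated, with a vector for nuclear EGFP, into the medial telencephalon of CD-1 embryos at E11.5, and sorting for GFP followed 24 hours later, at E12.5. The siRNA sequences are not given in the sources used here, set 2 targets Dmrt3 and Dmrta2 together, and the sort selects cells by the vector and not by cell type. The labels call the samples independent replicates without saying whether embryos were pooled, so each p-value measures the spread between these samples.

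Dmrt3 and Dmrta2 encode transcription factors with a DM domain, the DNA-binding domain first known from the sex determination genes doublesex and mab-3. In the telencephalon they are expressed in progenitors of the cortex, highest on the medial side, where the hippocampus and the cortical hem form. The hem is a signalling centre at the edge of the cortex that secretes Wnt and BMP proteins, and the medial wall also gives rise to Cajal-Retzius neurons, early neurons that make reelin.

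The arrays were one-colour Agilent arrays, 1 for each sample. Levels are given as log2 of the scanner software's processed signal minus the 75th percentile of that array, so that 0 is the 75th percentile and a difference of 1 is a doubling of the scaled signal. Replicates 1, 2 and 3 of every group lay on slides 1, 2 and 3, and the group always had the same position on the slide, so that position and group cannot be told apart. The 75th percentile of the signal was 624 to 859 on the set 2 arrays and 624 to 735 on the control arrays, and over the 12 arrays the share of spots well above background ran between 67.1% and 72.2%. Precision is limited by having 3 arrays a group. Correlations of arrays within set 2 or within the controls were 0.984 to 0.992, and those of a set 2 array with a control array 0.981 to 0.988. The telencephalic markers Lhx2, Emx2 and Pax6, the progenitor markers Sox2, Nes, Fabp7 and Slc1a3 and the neuronal markers Tubb3, Dcx and Stmn2 were well above background on all 6 arrays.

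The siRNA targets come first because they check the labels. Dmrt3 stood at -0.81, -0.04 and -0.47 on the set 2 arrays and at 0.06, 0.33 and 0.68 on the control arrays. All 3 set 2 arrays lay below all 3 controls, with set 2 replicate 2 the nearest to them. The difference was -0.79 ± 0.16 (standard error, SE, n = 3 against 3), which is 57.7% of the control level. The adjusted p was 0.0505 (limma with the slide as a block, Benjamini-Hochberg adjustment over all genes), just outside the threshold of 0.05. Each SE given here is limma's, with the spread estimated over all 12 arrays after the slide effect. Without the block the SE for Dmrt3 was 0.30 and its adjusted p 0.281. A fit of the 6 arrays alone gave Dmrt3 an adjusted p of 0.254 (limma). Without control replicate 2 the difference was -1.02 with an adjusted p of 0.0229. Dmrt3 passed in only 2 of 12 fits that left out 1 array, and without control replicate 1 or 3 its adjusted p was 0.196 or 0.166. Dmrta2 stood at 2.41, 2.44 and 1.92 on the set 2 arrays and at 2.72, 2.37 and 2.61 on the control arrays. The groups overlapped, and within slides 1, 2 and 3 the difference was -0.31, 0.07 and -0.69. Dmrta2 averaged -0.31 ± 0.14 (adjusted p = 0.282), 80.8% of control. In two-sided exact permutation tests Dmrt3 had p = 0.1 and Dmrta2 p = 0.3, where 0.1 is the smallest p that 20 groupings of 3 against 3 allow, and these became 0.2 and 0.3 after adjustment over both genes. Neither target passed the threshold.

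Of 8 genes of the Dmrt family that were tested, 1 rose, against 1.5% over all genes. This was Dmrtb1, at 0.63 ± 0.11 (adjusted p = 0.0338). It lay at -2.27, -1.95 and -2.03 in set 2 and at -2.72, -2.49 and -2.94 under control siRNAs, without overlap, but did not pass without the block (adjusted p = 0.155) and passed in only 1 of 12 fits that left out 1 array. The other members were Dmrtc1a (1.31 ± 0.38, adjusted p = 0.118, measured on 2 set 2 arrays and no control array), Dmrta1 (0.76 ± 0.29, adjusted p = 0.205), Dmrtc2, Dmrt1 and Dmrt2. The family had a median of 0.25, against 0.00 over all genes, but the sign turned over the 5 members measured on all 6 arrays, whose median was -0.14.

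**Figure D1:**
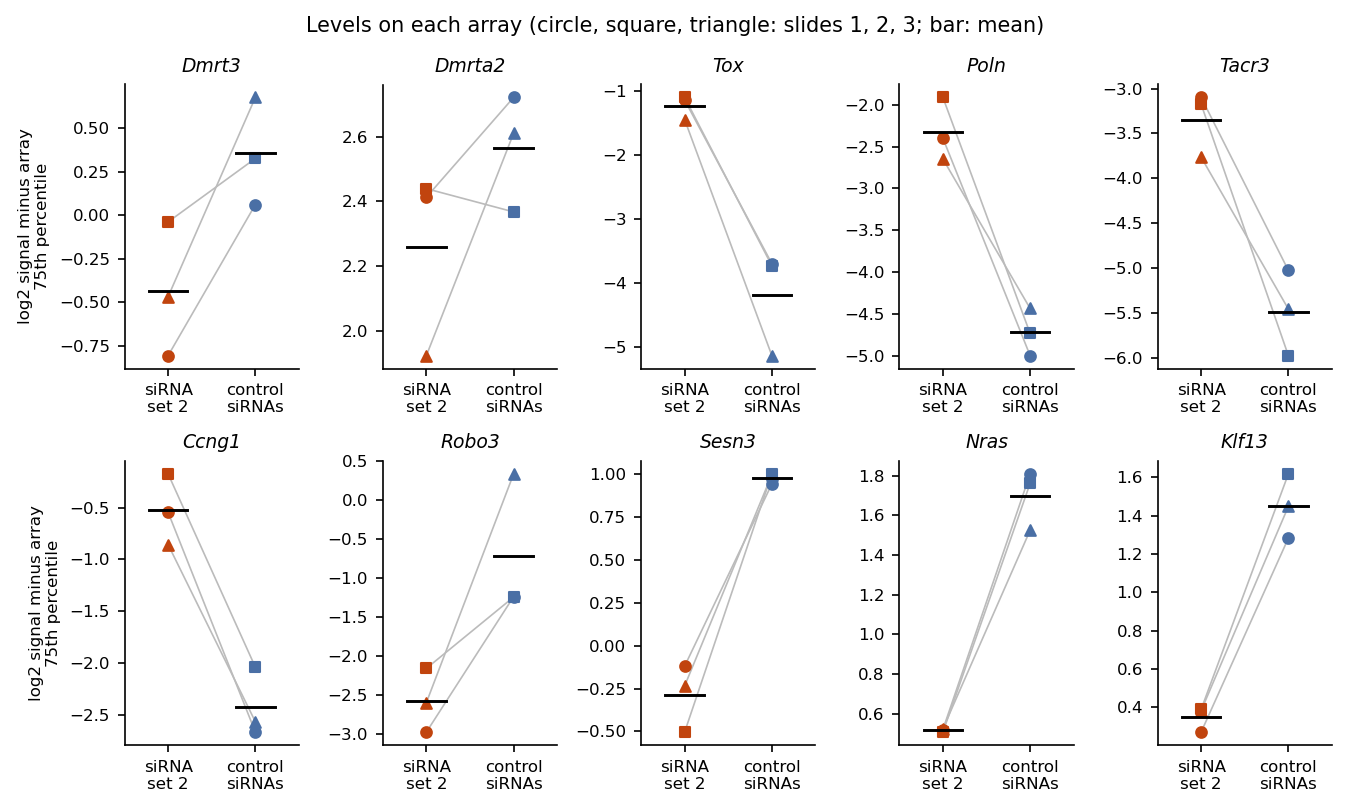
Levels of both siRNA targets and of 8 changed genes on each array, as log2 signal minus the 75th percentile of the array, with siRNA set 2 left of control siRNAs. Symbols mark slides 1, 2 and 3, grey lines join arrays of 1 slide, and bars are means of 3 arrays; only Dmrta2 shows overlap between the groups.

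Over all genes, 361 changed (2.36% of 15323), of which 230 were higher in set 2 (1.5%) and 131 lower (0.855%). An unadjusted p under 0.05 was found for 2923 genes, against 766 expected with no difference at all. All 361 differed in the same direction on all 3 slides. Without the slide as a block 144 genes passed, 102 higher and 42 lower, and all 144 were among the 361. The rises had a median of 0.75 on the log2 scale and a largest value of 2.96, and 69 exceeded 2-fold. The falls were smaller, with a median of -0.69, a lowest value of -1.87 and 21 past 2-fold. The groups did not overlap for 223 of the 230 rises and for 124 of the 131 falls, while over all genes 10.3% had all set 2 arrays above all controls and 7.71% all below. The calls rest on these same arrays, so neither these counts nor the shared direction on all 3 slides is separate support. The largest rises and falls named below were picked among genes without overlap, so their gaps follow from that choice. The count rested on single arrays: leaving out control replicate 1 left 1 gene, and leaving out control replicate 2 or 3 left 166 or 42. For set 2 replicates 1, 2 and 3 the counts were 18, 39 and 15. It was 157 without set 1 replicate 3, and 129 and 169 without overexpression replicates 1 and 3, whose arrays enter only the estimate of the spread. A fit of the 6 arrays alone called 0 genes at an adjusted p under 0.05 (limma), with 2290 at an unadjusted p under 0.05. The threshold fell between Samhd1, Tspan2 and Trmt10a, the last genes inside (adjusted p of 0.0497 to 0.0498), and Taf13 and Dmrt3, the first named genes outside (0.0503 and 0.0505).

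**Figure D2:**
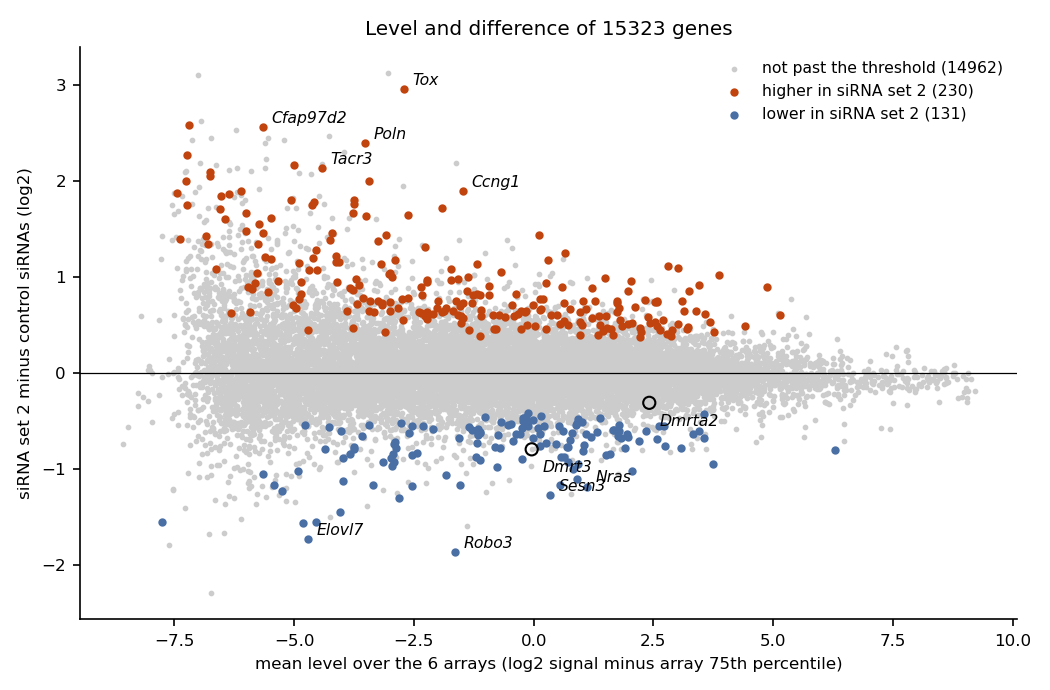
Difference of siRNA set 2 minus control siRNAs (log2, vertical) against the mean level over the 6 arrays (log2 signal minus the 75th percentile, horizontal) for 15323 genes. Coloured points are the 230 genes higher and the 131 lower in set 2, and open circles are Dmrt3 and Dmrta2; the largest rises lie at low levels.

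The largest rise was that of Tox, which encodes an HMG-box nuclear protein. Tox stood at -1.14, -1.10 and -1.45 in set 2 and at -3.70, -3.74 and -5.14 under control siRNAs, a clear gap with control replicate 3 the lowest array. This was a 7.81-fold rise (2.96 ± 0.33, adjusted p = 0.0112), and it passed in 9 of 12 fits that left out 1 array. Poln, a DNA polymerase of the translesion and repair type, stood at -2.40, -1.91 and -2.65 in set 2 and at -5.00, -4.73 and -4.43 under control siRNAs. It rose 5.28-fold without overlap (2.40 ± 0.23, adjusted p = 0.00881). Tacr3, the receptor for neurokinin B, stood at -3.10, -3.17 and -3.76 in set 2, against -5.02, -5.97 and -5.45 in controls. It rose 4.4-fold (2.14 ± 0.23, adjusted p = 0.01), and like Poln it passed in 11 of 12 such fits, failing only without control replicate 1 (adjusted p of 0.0593 for Poln and 0.0649 for Tacr3).

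Several of the 15 largest rises started from below background. Cfap97d2, which was well above background on all 3 set 2 arrays and on none of the control arrays, rose at least 5.24-fold (adjusted p = 0.013). On the same terms Arhgap9, a GTPase-activating protein, was at least 3.33-fold higher (adjusted p = 0.0309), Nrl, the leucine zipper factor of rod photoreceptors, at least 2.77-fold (0.0112), Trpm3, a cation channel, at least 2.53-fold (0.0333) and Ptpn6, a tyrosine phosphatase of blood cells, at least 2.51-fold (0.0306). Such a bound sets each control array to the lowest signal well above background on it, or to the probe's own signal if higher. Of all 230 rises, 21 had no control array well above background, and 194 were measured on all 6 arrays, which is 1.4% of the 13894 genes measured there. Pmch, the precursor of melanin-concentrating hormone, rose by 1.81 ± 0.35 (adjusted p = 0.0426) and Cyth4, a cytohesin, by 1.79 ± 0.28 (adjusted p = 0.0269), both measured on 2 of 3 control arrays. Arhgap9, Ptpn6 and Cyth4 averaged -5.42, -5.60 and -3.70 in set 2, and -5.61, -5.46 and -3.72 on the overexpression arrays. The means of Cfap97d2, Nrl, Trpm3 and Pmch were lower on the overexpression arrays than in set 2. The remaining rises among the 15 were Ccng1 and the myeloid genes C1qa, Tyrobp, Trem2 and C1qc, described with their groups.

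Among the falls, Robo3, a receptor that steers commissural axons, was the largest. It stood at -2.98, -2.16 and -2.60 in set 2 and at -1.24, -1.25 and 0.34 under control siRNAs, with control replicate 3 well above the other two. The fall was -1.87 ± 0.37 (adjusted p = 0.0432), the groups did not overlap, and it passed in only 1 of 12 fits that left out 1 array and not without the block (0.0666). Nras, a Ras GTPase, was at 0.52, 0.51 and 0.53 in set 2 and at 1.81, 1.76 and 1.52 in controls. It fell to 44.1% of the control level (-1.18 ± 0.10, adjusted p = 0.00881), with the groups far apart. Its other 2 probes differed by -1.08 and -0.47. Klf13, a zinc finger factor, was at 0.27, 0.39 and 0.38 in set 2 and at 1.28, 1.62 and 1.45 in controls, also apart. It fell to 46.6% of control (-1.10 ± 0.11, adjusted p = 0.00881). Both passed in 11 of 12 fits, failing without control replicate 1 (adjusted p of 0.0593 for Nras and 0.0641 for Klf13).

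Secreted and membrane proteins were among the other large falls. Cxcl14, a chemokine, fell by 1.55 ± 0.30 (adjusted p = 0.0426), Lypd1, a Ly6-type membrane protein that binds nicotinic receptors, by 1.45 ± 0.18 (0.0148) and Cbln2, a secreted synapse organiser, by 1.30 ± 0.13 (0.00881). Serpinb2, a plasminogen activator inhibitor, fell by 1.18 ± 0.24 (0.0479) and Lbp, the lipopolysaccharide-binding protein, by 1.17 ± 0.18 (0.0268). Elovl7, a fatty acid elongase, fell by 1.73 ± 0.31 (adjusted p = 0.0336). Of signalling regulators, Rgs13, which switches off G proteins, fell by 1.17 ± 0.23 (0.0426) and Dusp4, a MAP kinase phosphatase, by 1.16 ± 0.23 (0.0444). All 8 were measured on all 6 arrays, without overlap between the groups, which was a condition for naming them. Cbln2 passed in 10 of 12 fits that left out 1 array, Lypd1 in 8, Lbp in 6, and Elovl7, Rgs13, Cxcl14, Serpinb2 and Dusp4 in 3, 4, 2, 2 and 1. Without the block Cbln2 (adjusted p = 0.06), Lbp (0.058), Dusp4 (0.0676) and Cxcl14 (0.0505) did not pass.

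Genes of the p53 response formed the first group, chosen because p53, the DNA damage factor, is known to switch on a well-defined set of genes that arrest or kill cells. Of 36 tested, 6 rose and 1 fell, against 1.5% and 0.855% over all genes, with a median of 0.30 against 0.00. Ccng1, a cyclin that p53 induces, stood at -0.55, -0.18 and -0.86 in set 2, against -2.66, -2.04 and -2.56 in controls, with no overlap. It rose 3.72-fold (1.89 ± 0.18, adjusted p = 0.00881). Bbc3, which encodes the killer protein PUMA, was at 0.64, 1.02 and 0.52 in set 2 and at -0.12, -0.33 and -0.20 in controls. Phlda3, an inhibitor of Akt, was at 1.30, 1.57 and 0.95 in set 2 and at 0.33, -0.29 and 0.02 in controls. Both gaps left the groups apart, with rises of 0.95 ± 0.14 for Bbc3 (adjusted p = 0.0269) and 1.25 ± 0.18 for Phlda3 (0.0245). Dglucy, an enzyme of D-glutamate breakdown, rose by 0.98 ± 0.11 (0.0119, and 0.0884 without the block), and its other probe differed by 0.64. The receptor gene Eda2r rose at least 2.47-fold (adjusted p = 0.00881), measured on 2 of 3 set 2 arrays but no control array. The peptide transporter gene Tap1 rose at least 1.64-fold (0.0379), measured on every set 2 array but no control array.

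The list member that fell was Sesn3, a sestrin, a family of stress proteins that restrain mTORC1. It is counted here as a member of the list, and whether p53 switches it on was not tested. It stood at -0.12, -0.50 and -0.23 in set 2 and at 0.94, 1.00 and 1.00 in controls. The groups were far apart, and Sesn3 was at 41.5% of control (-1.27 ± 0.10, adjusted p = 0.00881). Ccng1 and Sesn3 passed in 11 of 12 fits that left out 1 array, failing without control replicate 1 (adjusted p of 0.0593 and 0.0522), and Eda2r passed in all 12. Members short of the threshold included Aen, a nuclease (0.60 ± 0.15, adjusted p = 0.0802), Pltp, a lipid transfer protein (0.75 ± 0.20, 0.0966), Zmat3, an RNA-binding protein (-0.41 ± 0.12, 0.113), Tnfrsf10b, a death receptor (0.46 ± 0.16, 0.178) and Psrc1 (0.44 ± 0.16, 0.18). The best-known targets, singled out after their values were seen, were among those not called: Cdkn1a, the p21 inhibitor of the cell cycle, at 0.52 ± 0.25 (adjusted p = 0.316) and Mdm2, the ligase that marks p53 for breakdown, at -0.00 ± 0.10 (0.998). The 6 rises became 1 without control replicate 1, 2 without control replicate 3, 4 without control replicate 2, and 2, 3 and 2 without set 2 replicates 1, 2 and 3. The list median within slides 1, 2 and 3 was 0.31, 0.49 and 0.20.

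Promoter windows of 3 of these genes are shown because p53 binds DNA through a decamer half-site whose consensus their windows hold. They run from 250 bases before to 50 bases after the annotated start, 5′ to 3′ on the gene's strand, as given by RefSeq for GRCm38.p6, and capitals mark each match to the p53 half-site decamer on either strand. Ccng1 lies at chr11:40755237-40755536 on the minus strand, 1 of 2 windows of Aen at chr7:78895808-78896107 and Cdkn1a at chr17:29090729-29091028, both on the plus strand.
Ccng1: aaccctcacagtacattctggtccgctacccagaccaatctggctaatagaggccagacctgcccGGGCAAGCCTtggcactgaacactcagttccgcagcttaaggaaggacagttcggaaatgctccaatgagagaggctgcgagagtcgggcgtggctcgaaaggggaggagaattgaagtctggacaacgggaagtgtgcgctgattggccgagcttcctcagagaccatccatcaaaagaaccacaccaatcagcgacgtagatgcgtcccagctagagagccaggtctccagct
Aen: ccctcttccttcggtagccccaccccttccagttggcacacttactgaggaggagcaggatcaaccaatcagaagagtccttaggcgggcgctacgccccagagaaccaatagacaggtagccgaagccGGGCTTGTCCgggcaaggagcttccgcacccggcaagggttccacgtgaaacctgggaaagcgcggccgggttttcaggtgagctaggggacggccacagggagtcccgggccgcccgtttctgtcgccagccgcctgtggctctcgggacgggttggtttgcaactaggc
Cdkn1a: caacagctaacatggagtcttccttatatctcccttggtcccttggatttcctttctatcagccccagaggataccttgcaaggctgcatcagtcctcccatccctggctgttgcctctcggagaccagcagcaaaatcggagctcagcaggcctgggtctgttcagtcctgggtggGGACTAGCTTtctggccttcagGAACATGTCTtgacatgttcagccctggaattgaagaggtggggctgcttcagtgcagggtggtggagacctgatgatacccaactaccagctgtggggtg
The match in Ccng1, the strongest riser of the 3, began 185 bases before the start, and the Cdkn1a window held 2 matches. Of the 28 list members with a promoter in the table, 12 held the decamer (42.9%), as did 8.56% of the 12172 tested genes with one, but Ccng1 was the only member of those 12 past the threshold. Over all 32851 windows the share was 8.36%. Among the 190 rises with a promoter 11.6% held it, and among the 97 falls 14.4%. The core letters TACANTGT, looked for on both strands because DM-domain factors bind related sequence, were in 4 of the 190 rises (2.11%), Aif1 among them, and in 2 of the 97 falls (2.06%), Serpinb2 among them, against 1.91% of tested genes. A match describes letters in these windows only.

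The p53 pathway's own regulators gave 0 calls among 14 tested, with a median of -0.11 and 3 at an unadjusted p under 0.05. The nearest was Chek1, a checkpoint kinase (-0.46 ± 0.11, adjusted p = 0.0793). Apoptosis effectors gave 0 calls among 17, with 7 at an unadjusted p under 0.05 and values on both sides of 0. Mcl1, which protects cells from apoptosis, was at -0.42 ± 0.09 (adjusted p = 0.056), and the death-promoting Bid and Bad at 0.42 ± 0.09 (0.0574) and 0.44 ± 0.10 (0.0634). Bcl2l11, which encodes BIM, was at -0.59 ± 0.15 (0.0929).

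No replication or division gene passed, and their medians changed sign between slides. Of 27 S phase and replication genes, 24 were lower in set 2, with a median of -0.28. The median was -0.58 on slide 1, 0.33 on slide 2 and -0.56 on slide 3, so that slide 2 went the other way. E2f1, which drives cells into S phase, was at -0.48 ± 0.14 (adjusted p = 0.117), and Rrm2, the ribonucleotide reductase subunit, at -0.54 ± 0.21 (0.204). By an unadjusted p under 0.05, 3 of the 27 passed. The 27 genes of G2 and M phase had slide medians of -0.45, 0.31 and -0.27, the same order of signs, and 0 calls with 4 at an unadjusted p under 0.05. Cenpf, a kinetochore protein, was at 0.56 ± 0.14 (0.0823) and Ccna2, cyclin A2, at -0.59 ± 0.17 (0.109). Postmitotic neuron markers, which went the opposite way to the cycle genes on each slide, had slide medians of 0.19, -1.02 and 0.57, with 0 of 20 called and 1 at an unadjusted p under 0.05. Their summed level ran from 76.5 to 151 on the set 2 arrays and from 92.3 to 146 on the control arrays, in units of each array's 75th percentile. In such bulk samples fewer cells of a type and less RNA per cell cannot be told apart, and the part of neuron content in the result was not tested.

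**Figure D3:**
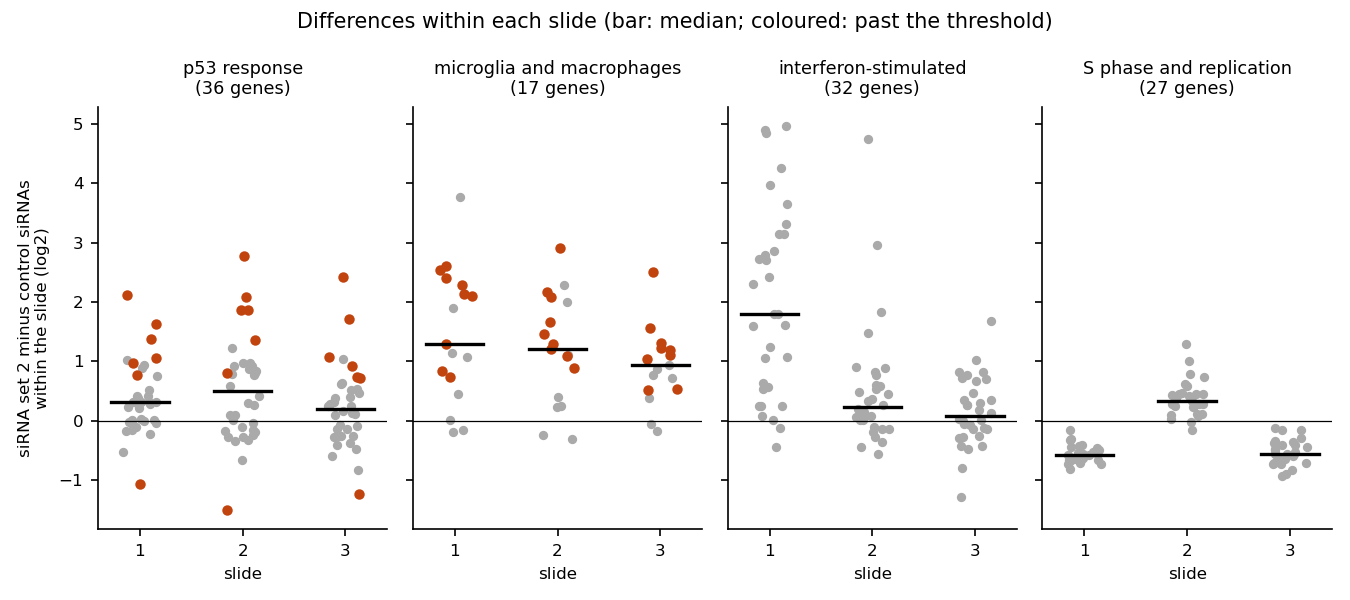
Difference of siRNA set 2 minus control siRNAs within each slide (log2, vertical) for the members of 4 gene lists, 1 point per gene, with bars at the median and colour for members past the threshold. The median of the interferon list is high on slide 1 only (1.80, 0.23 and 0.07), and that of the S phase list changes sign on slide 2.

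Microglia are the brain's resident macrophages, which enter it in the embryo from the yolk sac. Of 17 tested markers, 9 rose and none fell, against 1.5% over all genes, with a median of 1.44. Cx3cr1, the fractalkine receptor, was at -1.65, -2.16 and -1.60 in set 2 and at -3.75, -3.45 and -3.17 in controls. Tyrobp, a signalling adaptor of myeloid receptors, was at -2.18, -2.54 and -2.61 in set 2 and at -4.78, -4.72 and -3.84 in controls. Neither gene's groups overlapped, and they rose by 1.65 ± 0.21 (adjusted p = 0.0146) and 2.00 ± 0.27 (0.0194). Aif1, the actin-binding protein IBA1, rose by 1.64 ± 0.22 (0.0194). Trem2, a lipid receptor that signals through Tyrobp, rose by 1.80 ± 0.31 (0.0309), and Fcer1g, an Fc receptor chain, by 0.74 ± 0.14 (0.0378). The complement genes C1qa, C1qb and C1qc, which encode the chains of C1q, rose by 2.17 ± 0.37 (0.0319), 0.78 ± 0.16 (0.0444) and 1.77 ± 0.28 (0.0278), and C1qa was measured on 1 of 3 control arrays. Ly86, a partner of a Toll-like receptor homologue, rose by 1.67 ± 0.28 (0.0306). Without the block C1qb (adjusted p = 0.0951) and Fcer1g (0.0809) did not pass.

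All set 2 arrays lay above all controls for 12 of the 17 markers, against 10.3% of all genes. The median over the 12 markers measured on all 6 arrays was 1.21, and the slide medians were 1.29, 1.21 and 0.94. Of the 5 defining markers Cx3cr1, Tyrobp, Aif1 and C1qa rose, while Csf1r, the receptor that microglia need to survive, differed by -0.00 ± 0.16 (adjusted p = 0.993). The signals for Csf1r and Itgam made up most of the list's summed level, which was 13.6 to 25.9 in set 2 and 14.2 to 25.1 under control siRNAs. Against the same controls the list median was 0.69 in set 1 and 1.31 in the overexpression arrays. The number of list members that rose by limma was 9 in the main fit. It was 0 without control replicate 1 or set 2 replicate 1, and 3 without control replicate 2. It was 6 without control replicate 3, 1 without set 2 replicate 2 or 3, and 3 without overexpression replicate 1. Without control replicate 3, C1qb, Fcer1g, Ly86 and Trem2 did not pass, so those 6 include a member that is not among the 9. The part of microglia number in these values was not tested.

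**Figure D4:**
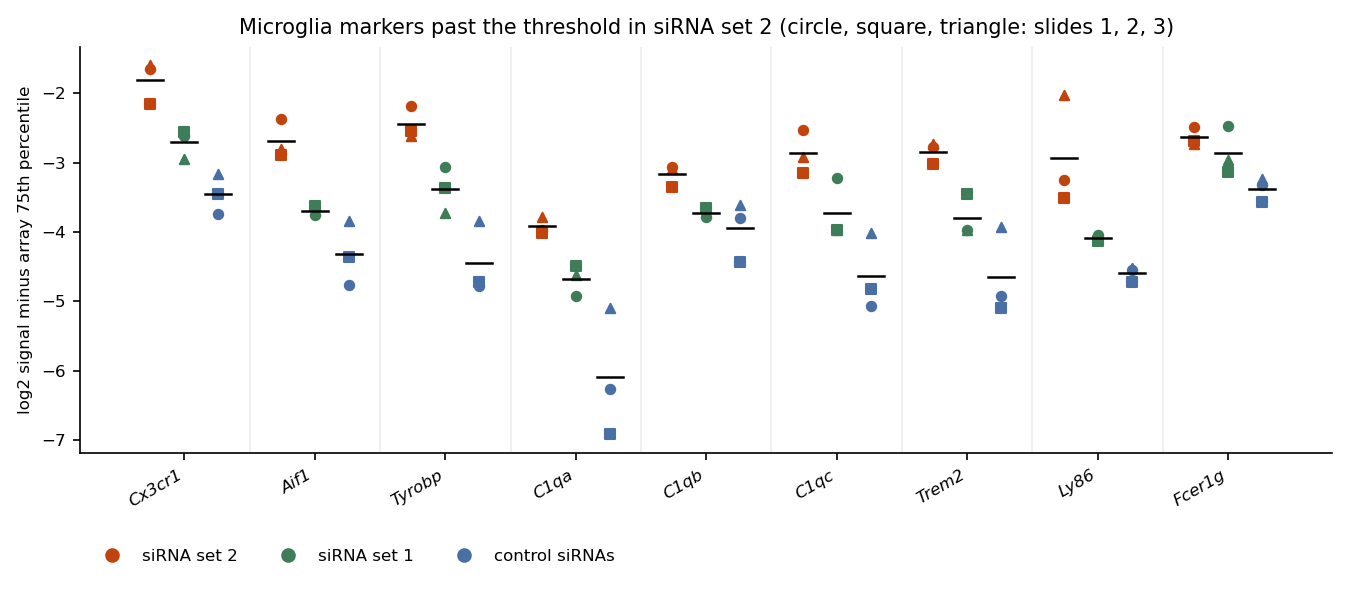
Levels of the 9 microglia markers past the threshold, as log2 signal minus the 75th percentile of the array, for siRNA set 2, siRNA set 1 and control siRNAs from left to right within each gene. Symbols mark slides 1, 2 and 3 and bars are means of 3 arrays; the set 2 arrays lie above all controls for every gene shown.

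Chemokines and cytokines included 2 rises among 13 tested, against 1.5% over all genes. Their median was 0.51, and 0.09 over the 6 measured on all 6 arrays. Ccl4, a chemokine of activated myeloid cells, was at -4.54, -4.81 and -4.65 in set 2 and at -6.19, -6.71 and -5.97 in controls, where it was measured on 1 array. It rose by 1.62 ± 0.27 (adjusted p = 0.0293, and 0.0809 without the block), and Il18, a cytokine released by inflammasomes, by 0.90 ± 0.15 (0.0293). Without control replicate 1, 2 or 3 or any 1 of the set 2 replicates neither passed. Lysosome and phagocytosis genes gave 0 calls among 14 with 5 at an unadjusted p under 0.05, led by Mertk, a receptor for dying cells (0.72 ± 0.16, adjusted p = 0.06), and Spp1, osteopontin (2.14 ± 0.57, 0.0978). Endothelial and erythroid markers gave 0 calls each, with medians of 0.51 over 11 and 0.51 over 10 genes, and 1 and 2 at an unadjusted p under 0.05. Of their defining markers, Cdh5 was measured on 2 set 2 arrays and no control array, and Hba-x on all set 2 and 2 control arrays. Their summed levels overlapped, at 7.86 to 13.6 in set 2 and 7.48 to 13.8 under control siRNAs for endothelial genes, and at 40.0 to 52.5 in set 2 and 40.4 to 54.9 under control siRNAs for erythroid genes.

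Interferon-stimulated genes are of interest because double-stranded RNA, siRNAs included, can be sensed by cells as a sign of a virus. No member of 32 passed (0 by limma, with 4 at an unadjusted p under 0.05), and the median was 0.81. Over the 21 members measured on all 6 arrays the median was 0.31. Ifit3, an antiviral RNA-binding protein, was at -3.71, -5.88 and -7.29 in set 2 and at -7.97, -8.84 and -7.96 in controls, where it was measured on no array. Isg15, a ubiquitin-like modifier singled out after its values were seen, was at 1.09, -1.17 and -1.99 in set 2 and at -1.33, -1.32 and -1.91 in controls. For Isg15 set 2 replicate 1 stood apart. For Ifit3 all set 2 arrays lay above all controls, with replicate 1 the highest and replicate 2 next. The summed level of the list was 11.8 in set 2 replicate 1, 6.01 and 4.58 in its other replicates, and 4.46 to 5.88 in controls. Within slides 1, 2 and 3 the median was 1.80, 0.23 and 0.07, and without set 2 replicate 1 the list median was 0.22. Cxcl10, a chemokine induced by interferon, was high on 2 of 3 set 2 arrays (-3.44, -4.04 and -8.91) and at -8.29, -8.79 and -8.63 in controls, with the difference at 3.11 ± 0.98 (adjusted p = 0.14).

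The sensors and signal carriers of double-stranded RNA gave 1 fall among 15, against 0.855% over all genes. Nfkb1, the p105 and p50 subunit of NF-kappa B, fell by 0.78 ± 0.11 (adjusted p = 0.0229, and 0.129 without the block), and its other probe differed by -0.51. Of 16 genes of small RNA processing, Dcp2, the enzyme that removes the cap from mRNA, was the 1 that fell, against 0.855% over all genes. It stood at -2.31, -2.32 and -2.42 in set 2 and at -1.25, -1.38 and -1.25 in controls. The groups were tightly spaced and apart, and Dcp2 was at 48.1% of control (-1.06 ± 0.11, adjusted p = 0.011), passing in 9 of 12 fits that left out 1 array. Dicer1, which cuts microRNA precursors, was at -0.36 ± 0.11 (0.136).

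Patterning genes of the telencephalon showed few calls. Among 23 tested genes of the ventral list, Etv1, an ETS factor, rose by 0.61 ± 0.12 (adjusted p = 0.0444, and 0.298 without the block). Tal2 fell by 1.56 ± 0.25 (0.0288). It is on this list but is described for GABAergic neurons of the midbrain, so its fall is not read as one of a ventral telencephalic regulator. The list median was 0.02 (-0.06 over the 15 measured on all 6 arrays). The shares over all genes were 1.5% higher and 0.855% lower. Etv1 passed in 2 of 12 fits that left out 1 array. Tal2 was at -5.13, -5.81 and -5.85 in set 2 and at -4.11, -4.21 and -3.81 in controls, without overlap. Isl1, a factor of striatal neurons, was at 0.83 ± 0.23 (adjusted p = 0.108), measured on no control array. Of 26 dorsal regulators 0 passed, with 6 at an unadjusted p under 0.05. Pax6, the factor of cortical progenitors, was at 0.04, 1.25 and 0.58 in set 2 and at -0.50, -0.31 and -0.41 in controls. The groups did not overlap, and Pax6 lay just outside the threshold, at 1.03 ± 0.22 (adjusted p = 0.0506). Nr2f1 was at 0.46 ± 0.15 (0.143) and Nr2f2 at 1.13 ± 0.39 (0.167), both nuclear receptors that pattern the cortex.

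At the cortical hem, 1 of 15 genes fell, against 0.855% over all genes. Wnt8b, a Wnt ligand of the hem and the hippocampal field, was at 0.55, 0.80 and -0.39 in set 2 and at 1.24, 1.47 and 1.25 in controls. The groups did not overlap, with set 2 replicate 3 the lowest, and Wnt8b fell by 1.00 ± 0.19 (adjusted p = 0.0426). It did not pass without the block (0.179) or in any of the 12 fits that left out 1 array, and its other probe differed by -0.25. Wif1, an inhibitor of Wnts, was at 1.30 ± 0.34 (0.0945). Wnt targets, BMP ligands and targets, the FGF, Notch and sonic hedgehog pathways and choroid plexus markers gave 0 calls among 16, 19, 17, 20, 11 and 10 genes (limma), with 4, 5, 1, 5, 0 and 0 at an unadjusted p under 0.05. Their medians ran from -0.20 for the FGF pathway to 0.36 for choroid plexus. The nearest members were Smad6, a BMP inhibitor (-0.40 ± 0.09, adjusted p = 0.0594), Bmp2 (-0.92 ± 0.20, 0.06) and Spry1, an FGF inhibitor (-0.56 ± 0.13, 0.0722).

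Neurogenic factors and Cajal-Retzius markers shared 1 fall, against 0.855% over all genes. Ebf2, an early B-cell factor family member made in Cajal-Retzius neurons, was at -2.35, -1.90 and -2.14 in set 2 and at -1.22, -1.01 and -0.67 in controls. It fell by 1.16 ± 0.16 without overlap (adjusted p = 0.02), and passed in 7 of 12 fits that left out 1 array. Tox was the 1 rise among 26 neurogenic genes, against 1.5% over all genes. The median of these 26 was 0.06, and -0.09 over the 23 measured on all 6 arrays. Olig3, a factor of the dorsal midline and hem, was at 2.11 ± 0.50 (0.0737) and Prdm12 at 2.43 ± 0.61 (0.0847), each measured on 1 control array and on all set 2 arrays. Of 15 Cajal-Retzius markers, Ebf2 was the 1 called, against 2.36% of all genes in either direction. Nhlh2 was at -0.80 ± 0.19 (0.0715) and Reln, the reelin gene, at 0.84 ± 0.48 (0.382). The neuron markers given above, which swing between slides, move on the same arrays as these lists, and their part in the values was not tested.

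Of 12 tachykinin and endothelin genes, 1 rose, the receptor Tacr3, and 1 fell, the ligand Edn2, against 1.5% and 0.855% over all genes, with a median of 0.39. Edn2, endothelin 2, was at -4.40, -4.60 and -4.65 in set 2 and at -3.39, -3.74 and -3.15 in controls, without overlap. It fell by 1.12 ± 0.19 (adjusted p = 0.0294). Tac2, which encodes neurokinin B, the ligand of Tacr3, was at -0.52, -2.35 and -1.57 in set 2 and at -4.97, -3.05 and -5.81 in controls. All set 2 arrays were higher, by 3.13 ± 0.73, but the spread left the adjusted p at 0.0712. Ednra, an endothelin receptor, was at 1.39 ± 0.31 (0.0634), and Tac1, the substance P precursor, at -1.11 ± 0.30 (0.0998).

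Setting set 2 against set 1 asks where different siRNAs against the same targets gave different levels. This comparison called 37 genes (0.241%), 14 higher in set 2 and 23 lower, with 2228 at an unadjusted p under 0.05, and 12 without the block. Both sets were run against the same control arrays, so each set's own difference from control is given side by side below. Of the 230 rises and 131 falls in set 2, 49 and 5 were also called in set 1 in the same direction. Over all 15323 genes set 1 called 88 higher and 27 lower than control, 0.751% in either direction, and the shared controls enter both differences. Tox and Tacr3 were among the 49, at 3.12 (adjusted p = 0.0177, limma) and 2.79 (0.00629) in set 1 against control. Of the p53 list, so were Ccng1, at 1.11 (0.0407), and Eda2r (0.0326), which was measured on 1 set 1 array and no control array. These were the 2 rises of that list in set 1, with 0 falls and a median of 0.07. Edn2 was among the 5 shared falls, at -1.34 in set 1 (0.0265). For the targets, Dmrt3 in set 2 was 0.22 ± 0.16 above set 1 (adjusted p = 0.572) and Dmrta2 0.30 ± 0.14 above it (0.371). A p that misses the threshold does not show that the sets lowered the targets alike. Set 1 itself differed from control by -1.01 for Dmrt3 (adjusted p = 0.0409) and by -0.61 for Dmrta2 (0.109).

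Poln was the gene most raised in set 2 over set 1, by 1.91 ± 0.23 (adjusted p = 0.0343). It was at -2.40, -1.91 and -2.65 in set 2 and at -3.93, -4.21 and -4.54 in set 1, and set 1 differed from control by 0.49 (0.384). Tor1aip2, a nuclear envelope protein, was 1.16 ± 0.11 higher in set 2 than in set 1 (0.0193), with a rise of 0.90 in set 2 over control (0.0146), though its other 2 probes differed by 0.05 and 0.66 between the sets. Pld1, a phospholipase, was 1.16 ± 0.17 higher (0.0497), and Mtmr11, a myotubularin relative, 0.77 ± 0.10 higher (0.0343). For Meis2, a homeobox factor of the forebrain, the difference of 0.86 ± 0.10 (0.0294) stood beside 0.17 for set 2 and -0.69 for set 1 against control. Mat2b, a regulator of methionine metabolism, and Otud7b, a deubiquitinase, likewise were 0.75 and 0.99 higher in set 2 than in set 1, beside -0.93 and -0.75 for set 1 against control (adjusted p of 0.0177 and 0.0485). Klhdc9 was 0.94 ± 0.11 higher (0.0343).

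Sesn3 and Nras were lower in set 2 than in set 1 as well as lower than in controls. Sesn3 was at 0.91, 0.78 and 0.92 in set 1, near its control level, and the difference of set 2 from set 1 was -1.16 ± 0.10 (adjusted p = 0.0193). Nras was at 1.66, 1.57 and 1.34 in set 1, and the difference of set 2 from set 1 was -1.01 ± 0.10 (0.0193). Rcan2, a calcineurin regulator, and Gprc5c, an orphan receptor, fell in set 2 against control by 0.93 ± 0.15 (0.0288) and 0.83 ± 0.16 (0.0399), and differed between set 2 and set 1 by -1.18 and -1.28 (both 0.0343). The other 3 probes of Gprc5c differed from control by -0.16, -0.74 and -0.32. Kcnk1, a potassium channel, was lower than in set 1 (0.0497), but with 2 of 3 set 2 arrays not well above background the size of its difference is not given. The parathyroid hormone receptor gene Pth1r differed between set 2 and set 1 by -1.51 (0.0294), beside -0.24 for set 2 and 1.27 for set 1 against control. For the amino acid transporter gene Slc7a10 the difference of -1.44 (0.0193) stood beside -0.39 for set 2 and 1.05 for set 1 against control. For Fgfbp3, an FGF-binding protein gene, -1.41 (0.0343) stood beside 0.28 for set 2 and 1.68 for set 1. For Scarf2, a scavenger receptor relative, -1.31 (0.0436) stood beside -0.30 for set 2 and 1.01 for set 1.

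**Figure D5:**
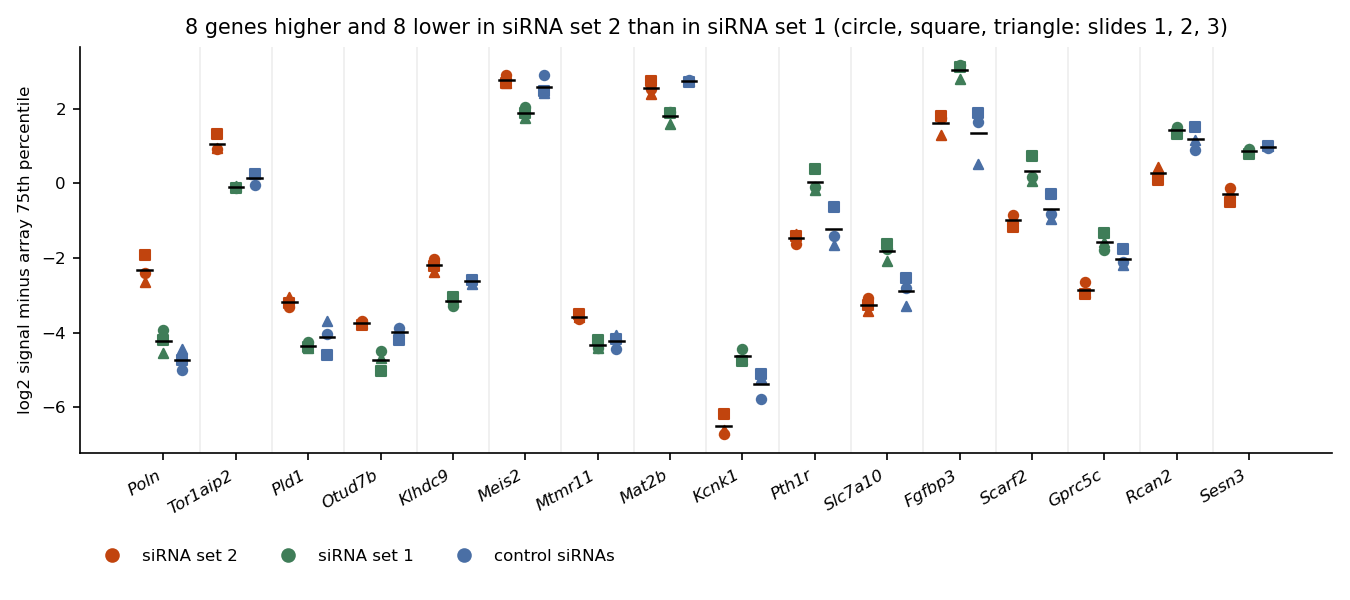
Levels of the 8 genes most raised and the 8 most lowered in siRNA set 2 against siRNA set 1, as log2 signal minus the 75th percentile of the array, for set 2, set 1 and control siRNAs from left to right within each gene. Symbols mark slides 1, 2 and 3 and bars are means of 3 arrays; for Poln and Sesn3 set 2 stands apart from both other groups, and for Pth1r and Fgfbp3 set 1 does.

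The count of 37 fell to 0 in the fits without control replicate 1, without set 1 replicate 1 or 3, without any 1 of the set 2 replicates, and without overexpression replicate 1 or 3. Leaving out set 1 replicate 2 gave 1 gene, control replicate 3 gave 9, overexpression replicate 2 gave 14 and control replicate 2 gave 43. Nras, Sesn3, Slc7a10 and Tor1aip2 passed in 3 of these 12 fits, and the other genes named here in 1 or 2.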

How the data were processed

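Spot intensity was taken from the processed-signal column that Feature Extraction 10.5.1.1 (Agilent) wrote, per the file headers. The authors' deposited log2 values, whose scale and centring no label states, correlated with the values used here at 0.9996 or more on every array, and served as an alternative. Here control and outlier spots were dropped, log2 signals were set relative to the array's 75th percentile, and spots of a probe were averaged. Probes were named through RefSeq accessions in a table of assembly GRCm38.p6 (26055 of 39429, 19751 genes). Each gene took its brightest probe well above background on at least 3 of 12 arrays. This held for 15382 genes, of which 59 lacked a value on an array and were left out, leaving 15323; 548 of the 629 genes on 33 lists were tested. No table column belonged to samples outside the series (0 columns).

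The test was limma's (version 3.58.1, lmFit and eBayes, R 4.3.3) over all 12 arrays, 4 groups of 3, with the replicate number as a block (6 residual degrees of freedom, 8 without it) and Benjamini-Hochberg adjustment. All tests are two-sided. The 6 set 2 and control arrays lay on 3 slides, and the scan barcodes in the file headers give the replicate number as the slide. Same-numbered set 2 and control arrays deviated together from their group means at correlations of 0.33, 0.134 and 0.096. The highest with a control array of another number was -0.079, 0.126 and 0.025, so that replicate 2 hardly differed. The first principal component (26.0% of variance) followed the slide (R2 of 0.96).

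Named genes were both targets, the 15 largest rises and 15 largest falls whose arrays did not overlap and that were well above background on the brighter group, every list member past the threshold, up to 5 further members in order of p, and the 8 largest differences each way between the sets; clone and locus names were left out. The members and lists were chosen with earlier results of these data known. The code was tested on simulated data. Alternatives changed the block, background correction, scaling, filter, probe rule and arrays, 1 at a time; a capped background was added after seeing the data.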

Additional observations from a re-analysis of the deposited data

Results flagged for a closer look

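The response of 37 genes differed between siRNA set 2 and siRNA set 1 by a test of the difference itself (limma, adjusted p under 0.05), 14 of them higher in set 2. They included 7 of the 230 genes higher and 13 of the 131 lower in set 2 than under control siRNAs.

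Outside the named genes, 15 of 8288 probes without a gene name here changed in set 2 against control siRNAs, 10 higher and 5 lower, which is 0.181% of those tested.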

How the results depend on the processing

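The 361 genes changed in set 2 against control siRNAs became 144 with no replicate block, 0 with the 6 arrays alone and a replicate block, 0 with normexp background correction (255 at an unadjusted p under 0.05), and 77 with no filter on dim probes; leaving out 1 array gave 1 to 389. The 37 genes between the sets became 12 with no block, 0 with their 6 arrays alone, 0 with normexp, 64 with normexp and a capped background, 18 with median centring, 5 with no filter, 72 with probes well above background on all 12 arrays and 22 with the mean of all probes; leaving out 1 array gave 0 to 43. On the overexpression replicates 1 and 2 and set 1 replicate 2, 9, 34 and 8 spots had a local background over 2 times the array's median, up to 203165, and with these capped normexp called 272 genes, 232 of them among the 361. Other scalings, the deposited values, the stricter filter and the mean of probes gave 249 to 381. Dmrt3 passed in 4 of 22 alternatives. These were the stricter filter of 12 arrays (-0.79, adjusted p = 0.0381), capped normexp (-0.71, 0.0371) and 2 fits that left out 1 array. Leaving out 1 array gave -1.02 to -0.63. Dmrta2 did not pass under any alternative. Mtmr11 between the sets was reversed with normexp (-0.0355, adjusted p = 0.996). Of 65 genes refitted (the targets, list members past the threshold and the largest changes in both comparisons), none changed sign in set 2 against control siRNAs under these alternatives. The cause of these changes was not tested, except that dropping the filter raises the number of genes tested and dropping arrays lowers the residual degrees of freedom. Low signal limits genes below background in a group to a bound.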

Other observations

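Stress genes outside the p53 group gave few calls. Hsph1, a chaperone of the HSP110 type, rose by 0.46 ± 0.09 (adjusted p = 0.0426). It was the 1 rise among 15 tested genes of a stress list, against 1.5% over all genes. The list held heat shock chaperones such as Hsph1 beside genes of the unfolded protein and integrated stress responses. In set 1 Hsph1 also rose against control, by 0.53 (adjusted p = 0.0481, limma). In set 2 against control it did not pass without the block (0.229) and passed in 1 of 12 fits that left out 1 array. It stood at 3.37, 3.62 and 3.29 in set 2 and at 2.96, 3.04 and 2.91 under control siRNAs, without overlap, and its other probe differed by 0.46. Hspa1a, an inducible HSP70, was at 2.19 ± 0.86 (adjusted p = 0.215). Of 14 immediate early genes, which answer growth signals and dissociation within minutes, 1 fell and none rose, against 0.855% and 1.5% over all genes. The fall was that of Myc, by 0.92 ± 0.14 (adjusted p = 0.0257), and the list median was -0.34. Leaving out 1 array moved that median between -0.55 and 0.06, so that its sign turned, and Myc passed in 6 of 12 such fits. Myc was at -3.34, -3.59 and -3.89 in set 2 and at -2.77, -2.44 and -2.83 in controls, again apart. Fos was at -0.76 ± 0.44 (0.39) and Egr1 at -0.83 ± 0.53 (0.433).

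Progenitor markers gave 0 calls among 16, with 8 at an unadjusted p under 0.05. Slc1a3, a glutamate transporter of radial glia, was at 0.74 ± 0.16 (adjusted p = 0.06) and Ptn, pleiotrophin, at 0.75 ± 0.18 (0.0766), while Sox1 was at -0.53 ± 0.19 (0.176). Surface ectoderm, mesenchyme and neighbouring forebrain markers gave 0 calls among 11, 12 and 15 genes, with 3, 3 and 2 at an unadjusted p under 0.05. Krt8, a keratin, did not stand well above background on any of the 6 arrays, and Krt18 was at -1.03 ± 0.30 (0.117). The summed level of the ectoderm markers was 6.90 to 9.97 in set 2, and 9.43 and 9.02 on control replicates 2 and 3 with control replicate 1 higher, and that of mesenchyme markers 3.55 to 3.87 in set 2 and 2.65 to 3.10 under control siRNAs.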
